A study of Mus musculus with 49 samples.

Results

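The enzymes that make sebum were followed through 10 listed genes, found by their Entrez gene IDs among the 24475 gene IDs of the skin table; the list was not chosen by a measured value in these libraries but was drawn up with earlier results of the same data known. All 10 were present in the table and all 10 passed the filter on low counts in skin. Sebaceous glands are lobes of lipid-filled cells attached to the hair follicle, and their cells burst to release sebum, a mixture of wax esters, triglycerides, cholesterol esters and free fatty acids. Fatty acids are lengthened by elongases, given a double bond by desaturases, reduced to fatty alcohols by reductases, and joined to those alcohols by wax synthases. In mice, loss of the desaturase Scd1 shrinks the glands and dries the skin, as in the asebia mutants. Inflamed and psoriasis-like skin is known for altered glands. Scd1, Soat1 and Elovl6 are also used by many other cell types.

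The listed genes fall into 6 roles. Awat1 and Awat2 encode acyl-CoA wax alcohol acyltransferases, which join a fatty acid to a fatty alcohol, and Dgat2l6 encodes a related acyltransferase of the same family. Far2 encodes a fatty acyl-CoA reductase, the supplier of fatty alcohols, and Soat1 encodes sterol O-acyltransferase, which esterifies cholesterol. Elovl3 and Elovl6 encode elongases of long-chain fatty acids, of which Elovl6 lengthens palmitate to stearate. Scd1 and Scd3 encode stearoyl-CoA desaturases. Krt79 encodes a keratin of the cells that line the sebaceous duct and upper hair follicle, and is the structural member of the list.

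All animals were of a model of DITRA (deficiency of the interleukin-36 receptor antagonist) on a background of 75% C57BL/6NTac and 25% 129S6/SvEvTac, and no wild-type group entered the comparisons. Skin held 7 libraries of animals given imiquimod (IMQ, a Toll-like receptor agonist that inflames skin) and anti-IL-36R, which targets the receptor of interleukin-36 in its human form, 7 given IMQ and anti-IL-12p40, which targets the p40 chain found in mouse interleukin-12 and also in interleukin-23, 6 given IMQ and PBS, and 3 labelled water and PBS. Colon held 8 libraries given dextran sulfate sodium (DSS, which injures the gut lining) and anti-IL-36R, 7 given DSS and anti-IL-12p40, 6 given DSS and PBS, and 5 labelled water and PBS. The labels used here give neither age nor sex, and the number of animals behind a library is not stated, so the p-values measure the spread between libraries.

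Skin libraries totalled 14.72 M to 19.68 M expected counts and colon libraries 15.08 M to 18.66 M. The lowest count of any member in a skin library was 20, for Awat2. Epidermal keratinocyte markers summed to 28600 CPM (a gene's counts per M counts of the library, after adjustment of its total) or more in every skin library, while markers of colon epithelium summed to 2.03 CPM or less there, as the tissue labels say. By sample number in the labels, libraries form stretches, called runs here. The water controls stand beside IMQ PBS replicates 1 to 3, anti-IL-36R beside IMQ PBS replicates 4 to 6, and anti-IL-12p40 between them. A gap separates water replicate 3 and IMQ PBS replicate 3 from the lower-numbered water and IMQ PBS libraries. The anti-IL-12p40 numbers follow after a smaller gap. Whether the water controls and IMQ PBS replicates 1 to 3 make 1 run is therefore not shown. What the runs stand for is not given, and antibody and run cannot be told apart without the IMQ PBS libraries that share the run. No IMQ PBS or water library stands within the anti-IL-12p40 numbers, and no water library within those of anti-IL-36R. Antibody and run therefore cannot be told apart in the comparisons of anti-IL-12p40 with PBS or water, nor in that of anti-IL-36R with water. IMQ PBS replicate 4 was the highest of its group for all 10 members, and water replicate 3 the highest of its group for all 10.

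Awat2 (Entrez 245532, X, 100402221 to 100494278), Dgat2l6 (668257, X, 100524838 to 100546108) and Awat1 (245533, X, 100572247 to 100578206) are neighbours within 176 kb of the X chromosome in GRCm38.p6, the mm10 build. Scd3 (30049, chromosome 19, 44203288 to 44244016) and Scd1 (20249, chromosome 19, 44394450 to 44407709) lay within 204 kb, and Elovl3 (12686, chromosome 19, 46131897 to 46135694) was farther along the same chromosome. Elovl6 (170439, chromosome 3, 129532386 to 129638495), Far2 (330450, chromosome 6, 148047416 to 148182758), Soat1 (20652, chromosome 1, 156428108 to 156474328) and Krt79 (223917, chromosome 15, 101929332 to 101940324) stood apart.

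Because the members moved together, the 250 bases before an annotated start were read for 8 members from RefSeq (GRCm38.p6). These were 9 promoters, of which 2 were for Awat2. Promoters of Scd1 and Elovl3 were not available and were not read. Shown are the X-linked neighbours, at the 2 Awat2 starts that the promoter table holds, both of which lie inside the gene span given above, and the other promoters that held a searched motif. Each sequence is written 5′ to 3′ on the strand of its gene, and capitals mark a match to CCAAT or AGGTCA on either strand (ATTGG and TGACCT are those motifs on the opposite strand).
Awat2 first listed start, chrX:100442718-100442967, minus strand: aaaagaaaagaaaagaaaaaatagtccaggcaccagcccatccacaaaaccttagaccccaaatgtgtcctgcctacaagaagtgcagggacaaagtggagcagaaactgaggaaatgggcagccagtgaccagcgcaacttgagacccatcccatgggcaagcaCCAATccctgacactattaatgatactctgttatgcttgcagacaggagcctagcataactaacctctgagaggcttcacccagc
Awat2 second listed start, chrX:100412588-100412837, minus strand: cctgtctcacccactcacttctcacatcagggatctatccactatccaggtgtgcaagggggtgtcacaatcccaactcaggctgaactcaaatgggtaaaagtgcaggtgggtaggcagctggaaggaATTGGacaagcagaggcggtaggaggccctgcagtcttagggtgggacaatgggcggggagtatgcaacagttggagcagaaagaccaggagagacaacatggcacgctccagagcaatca
Dgat2l6, chrX:100524588-100524837, plus strand: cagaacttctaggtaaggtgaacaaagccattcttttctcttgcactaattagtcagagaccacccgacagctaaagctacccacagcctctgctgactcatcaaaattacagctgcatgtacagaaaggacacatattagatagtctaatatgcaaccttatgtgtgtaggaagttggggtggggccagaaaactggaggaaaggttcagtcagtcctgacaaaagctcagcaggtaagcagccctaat
Awat1, chrX:100571997-100572246, plus strand: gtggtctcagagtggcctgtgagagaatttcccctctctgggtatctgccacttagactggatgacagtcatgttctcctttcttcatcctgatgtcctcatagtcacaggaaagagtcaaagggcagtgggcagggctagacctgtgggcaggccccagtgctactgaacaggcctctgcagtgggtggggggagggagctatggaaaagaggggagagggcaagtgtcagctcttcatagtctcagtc
Elovl6, chr3:129532136-129532385, plus strand: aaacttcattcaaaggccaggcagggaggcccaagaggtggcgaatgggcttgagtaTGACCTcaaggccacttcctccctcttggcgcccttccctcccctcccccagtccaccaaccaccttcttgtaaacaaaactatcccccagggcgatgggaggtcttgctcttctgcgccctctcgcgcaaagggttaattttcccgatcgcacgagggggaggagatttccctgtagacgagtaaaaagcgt
Soat1, chr1:156474329-156474578, minus strand: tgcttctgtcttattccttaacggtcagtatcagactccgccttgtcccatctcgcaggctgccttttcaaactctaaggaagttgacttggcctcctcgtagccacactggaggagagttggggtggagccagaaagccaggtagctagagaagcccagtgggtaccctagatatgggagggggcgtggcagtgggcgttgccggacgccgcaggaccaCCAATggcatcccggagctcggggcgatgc
The sterol regulatory element TCACNCCAC, the target of the SREBP factors that drive lipid synthesis, was found in 0 of the 9 promoters read. It was found in 1.05% of all 32851 promoters of the same length. At so low a share, 0 of 9 does not set the members apart from other promoters, and Scd1 was not among those read. The CCAAT box was found in 3 of 9, for Awat2 and Soat1, and in 33.8% of all promoters. The nuclear receptor element AGGTCA, a core of the sites that PPAR and RXR receptors bind, was found in 1 of 9, for Elovl6, and in 14% of all promoters. The motifs did not overlap one another in these windows, and the 3 genes of the X-linked cluster shared no match among the letters searched.

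Per kilobase of annotated exon, Krt79 and Scd1 were the most abundant members in every skin group. In IMQ skin with anti-IL-36R, Krt79 stood at 767 ± 269 and Scd1 at 491 ± 192 CPM per kilobase (SD, n = 7). They were followed by Elovl3 at 140 ± 48.9, Elovl6 at 76.3 ± 34.2, Awat1 at 51.3 ± 20.1, Far2 at 34.0 ± 16.1 and Soat1 at 20.5 ± 7.95 CPM per kilobase. The lowest were Dgat2l6 at 19 ± 7.59, Scd3 at 8.72 ± 4.87 and Awat2 at 3.56 ± 1.09 CPM per kilobase. The same order held in the other groups, except that in water skin Elovl6 (120.0 ± 59.0, n = 3) stood above Elovl3 (101 ± 40). Most neighbours in this order were not separated by their spread: of 9 neighbouring pairs, the intervals of mean ± SD were apart for 1 in IMQ skin with anti-IL-36R, 2 with anti-IL-12p40, 1 in IMQ PBS skin and 1 in water skin, and the step below Scd1 was the pair that was apart in all 4. The order of Awat1 and Far2 turned round when the longest transcript was used as the length.

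All 10 genes fell with IMQ and all 10 rose with each antibody, and no member was called between the antibodies. A gene is called here at a Benjamini-Hochberg adjusted p under 0.05 of edgeR's quasi-likelihood test over the 15345 genes tested in skin, and a fold change is given on the log2 scale ± SE. In IMQ PBS skin against water PBS skin, 10 of 10 members fell, where 17.5% of all genes tested were called lower and 15.5% higher; the members' fold changes ran from -2.33 to -1.53, with a median of -2.08 beside -0.03 over all genes. With anti-IL-36R against PBS under IMQ, 10 of 10 rose, where 3.29% of all genes were called higher and 0.919% lower, from 1.35 to 2.41 with a median of 1.89 beside 0.00 over all genes. With anti-IL-12p40 against PBS under IMQ, 10 of 10 rose, where 5.32% of all genes were called higher and 3.49% lower, from 1.44 to 2.09 with a median of 1.73 beside 0.01 over all genes. The 3 comparisons share the 6 IMQ PBS libraries, so they are not independent of one another. Against IMQ PBS replicates 4 to 6 alone, 1 of 10 was called with each antibody (Krt79). In whole skin, fewer sebaceous cells and less RNA per cell cannot be told apart.

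**Figure D1:**
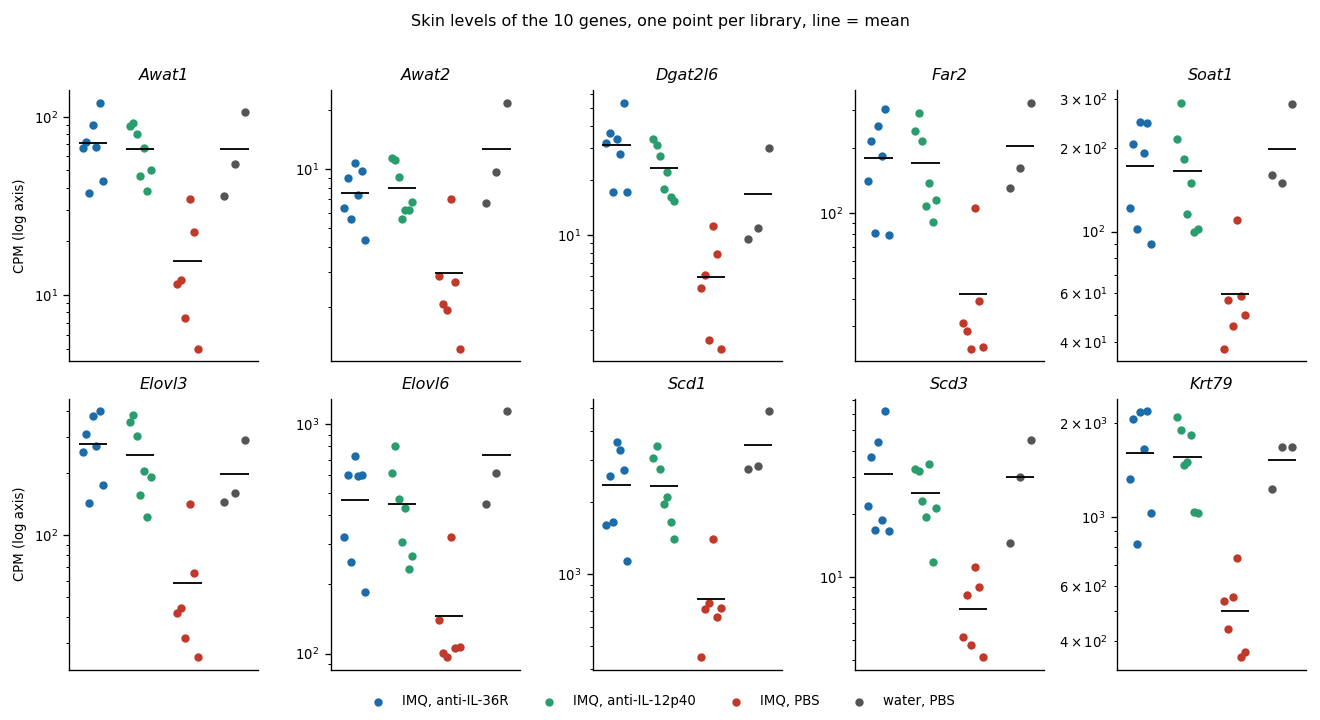
Level of each of the 10 genes in every skin library, in CPM on a log axis, by group; the black line is the group mean. The IMQ PBS mean is the lowest of the 4 in every panel, and the point of IMQ PBS replicate 4 is the top red point in each.

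The wax synthases were strongly lower in IMQ PBS skin. Awat1 had 37.6 to 120.0 CPM (median 67.8) with anti-IL-36R, 38.3 to 92.9 (66.8) with anti-IL-12p40 and 4.99 to 34.6 (11.8) in IMQ PBS skin, against 36, 54.1 and 107 CPM in water skin. No library of either antibody group or of water skin was as low as the highest IMQ PBS library, replicate 4. Awat1 fell by 2.08 ± 0.45 with IMQ (adjusted p = 0.00194) and rose by 2.20 ± 0.39 with anti-IL-36R (adjusted p = 0.00393) and by 2.09 ± 0.388 with anti-IL-12p40 (adjusted p = 0.0033).

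Awat2, the scarcest member, had 4.38 to 10.7 CPM (median 7.38) with anti-IL-36R, 5.56 to 11.4 (6.78) with anti-IL-12p40 and 1.22 to 7.07 (2.36) in IMQ PBS skin, against 6.70, 9.66 and 21.7 CPM in water skin. IMQ PBS replicate 4, at 7.07 CPM, reached into both antibody groups and above the lowest water library. Awat2 fell by 2.09 ± 0.406 with IMQ (adjusted p = 0.00096) and rose by 1.35 ± 0.347 with anti-IL-36R (adjusted p = 0.0304) and by 1.44 ± 0.347 with anti-IL-12p40 (adjusted p = 0.0133). Its rise with anti-IL-36R lost its call when any of IMQ PBS replicates 2, 3, 5 and 6 or anti-IL-36R replicates 2, 4, 5 and 6 was left out (1.19 to 1.36, adjusted p 0.0505 to 0.0807).

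Dgat2l6 had 17.2 to 53.5 CPM (median 32.3) with anti-IL-36R, 15.4 to 33.6 (22.2) with anti-IL-12p40 and 2.37 to 11.2 (5.60) in IMQ PBS skin, against 9.53, 11 and 30.2 CPM in water skin. Every antibody library exceeded every IMQ PBS library, whereas the IMQ PBS and water libraries overlapped. Dgat2l6 had the largest rise of the list with anti-IL-36R, 2.41 ± 0.369 (adjusted p = 0.00181), rose by 2.0 ± 0.366 with anti-IL-12p40 (adjusted p = 0.00301), and had the smallest fall with IMQ, 1.53 ± 0.432 lower (adjusted p = 0.0105). That fall depended on water replicate 3: without it the fold change was -0.81 and the adjusted p 0.22.

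Far2, the reductase, had 79.3 to 303 CPM (median 183) with anti-IL-36R, 90.6 to 290.0 (138) with anti-IL-12p40 and 23.6 to 106 (29.8) in IMQ PBS skin, against 130.0, 161 and 323 CPM in water skin. It fell by 2.28 ± 0.476 with IMQ (adjusted p = 0.00151), with no overlap between the groups. It rose by 2.09 ± 0.412 with anti-IL-36R (adjusted p = 0.00623) and by 2.02 ± 0.411 with anti-IL-12p40 (adjusted p = 0.00531). IMQ PBS replicate 4 reached into both antibody groups, and the next library, replicate 5, had 39.4 CPM.

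Soat1, the cholesterol esterifier, had 90.1 to 247 CPM (median 191) with anti-IL-36R, 100 to 291 (150.0) with anti-IL-12p40 and 37.8 to 110.0 (53.4) in IMQ PBS skin, against 149, 160.0 and 288 CPM in water skin. It fell by 1.74 ± 0.366 with IMQ (adjusted p = 0.00162) and rose by 1.52 ± 0.31 with anti-IL-36R (adjusted p = 0.00793) and by 1.47 ± 0.309 with anti-IL-12p40 (adjusted p = 0.00627). Water and IMQ PBS libraries did not overlap, and each antibody group overlapped IMQ PBS at replicate 4.

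The elongases both fell with IMQ and rose with the antibodies. Elovl3 had 144 to 401 CPM (median 270.0) with anti-IL-36R, 122 to 385 (205) with anti-IL-12p40 and 25.5 to 142 (43.2) in IMQ PBS skin, against 145, 161 and 289 CPM in water skin. It fell by 1.76 ± 0.435 with IMQ (adjusted p = 0.00466) and rose by 2.24 ± 0.378 with anti-IL-36R (adjusted p = 0.00319) and by 2.07 ± 0.375 with anti-IL-12p40 (adjusted p = 0.00295). Elovl6 had 186 to 723 CPM (median 595) with anti-IL-36R, 234 to 807 (433) with anti-IL-12p40 and 96.3 to 323 (107) in IMQ PBS skin, against 449, 613 and 1140 CPM in water skin. Elovl6 had the largest fall of the list with IMQ, 2.33 ± 0.444 lower (adjusted p = 0.000842), and rises of 1.69 ± 0.378 with anti-IL-36R (adjusted p = 0.0139) and 1.62 ± 0.377 with anti-IL-12p40 (adjusted p = 0.011). The Elovl3 means with anti-IL-36R (277 CPM) and anti-IL-12p40 (246 CPM) were above the water mean (199 CPM). Those of Elovl6 (468 and 447 CPM) were below it (734 CPM), and neither gene was called against water with either antibody.

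Among the desaturases Scd1 was abundant and Scd3 scarce. Scd1 had 1140 to 3580 CPM (median 2580) with anti-IL-36R, 1410 to 3440 (2100) with anti-IL-12p40 and 448 to 1400 (718) in IMQ PBS skin, against 2770, 2830 and 4830 CPM in water skin. It fell by 2.15 ± 0.341 with IMQ (adjusted p = 0.000241, the lowest of the list) and rose by 1.60 ± 0.289 with anti-IL-36R (adjusted p = 0.00403) and by 1.58 ± 0.289 with anti-IL-12p40 (adjusted p = 0.00301). Every anti-IL-12p40 library exceeded every IMQ PBS library, and anti-IL-36R replicate 7 was below IMQ PBS replicate 4.

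Scd3 had 16.6 to 61.7 CPM (median 21.8) with anti-IL-36R, 11.8 to 34.6 (23.1) with anti-IL-12p40 and 4.14 to 11.2 (6.66) in IMQ PBS skin, against 14.5, 30.0 and 44.9 CPM in water skin. Its IMQ PBS libraries were below all other libraries of the skin table. Scd3 fell by 2.08 ± 0.423 with IMQ (adjusted p = 0.00128) and rose by 2.13 ± 0.365 with anti-IL-36R (adjusted p = 0.00334) and by 1.83 ± 0.362 with anti-IL-12p40 (adjusted p = 0.00477). Scd1 and Scd3 are close paralogs whose expected counts were not whole in 23 of 23 skin libraries, so the authors' tool shared out reads that fit several genes, and the Scd3 level is uncertain to that extent. The same holds for Soat1 and Krt79 (23 of 23 libraries) and Elovl6 (22 of 23), but for none of the Awat1, Dgat2l6, Elovl3 and Far2 counts in skin.

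Krt79, the duct keratin, had the smallest SE of the 10 in each skin comparison. It had 819 to 2190 CPM (median 1650) with anti-IL-36R, 1030 to 2100 (1500) with anti-IL-12p40 and 355 to 737 (487) in IMQ PBS skin, against 1230, 1680 and 1680 CPM in water skin. Krt79 fell by 1.62 ± 0.283 with IMQ (adjusted p = 0.000493) and rose by 1.69 ± 0.241 with anti-IL-36R (adjusted p = 0.00181) and by 1.64 ± 0.24 with anti-IL-12p40 (adjusted p = 0.000836), with no IMQ PBS library in the range of any other group. It was also the single member whose rise with each antibody was called when only IMQ PBS replicates 4 to 6 served as the comparison.

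**Figure D2:**
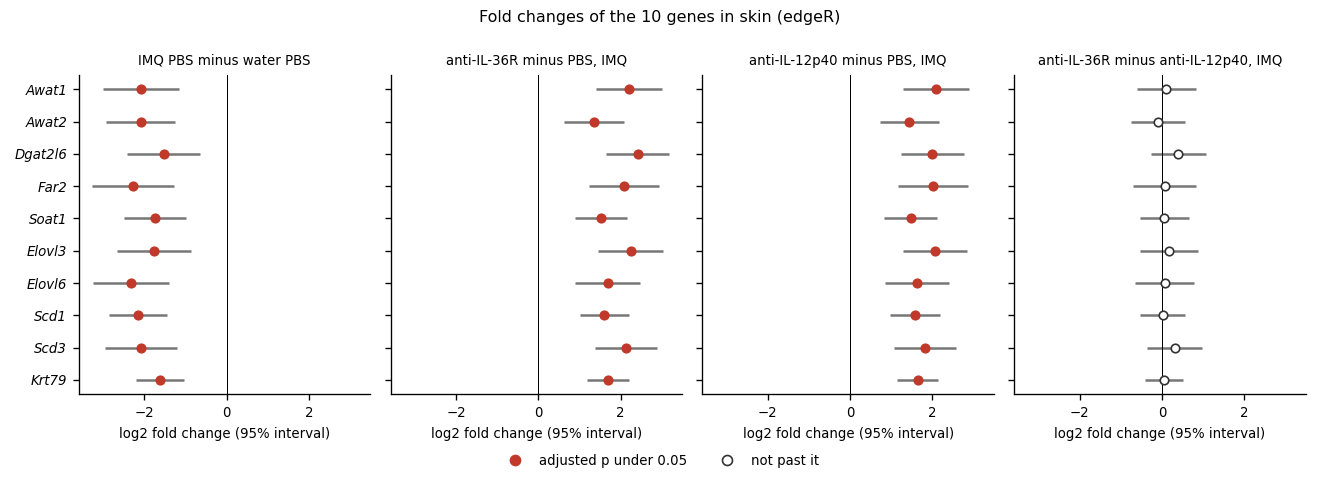
Log2 fold changes of the 10 genes in 4 skin comparisons, with 95% intervals; red points have an adjusted p under 0.05 and open points do not. All 10 lie left of 0 with IMQ and right of 0 with each antibody, and all 10 intervals cross 0 between the antibodies.

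Which IMQ PBS libraries served as the comparison changed the antibody calls. The share of all genes called in these refits is not reported here. Whether the change in calls is particular to the members therefore cannot be read from the counts below. Against replicates 1 to 3 alone, 10 of 10 were called with each antibody. Against replicates 4 to 6 alone, which share the run of anti-IL-36R, the anti-IL-36R fold changes were 1.05 to 2.13 and 1 of 10 was called (Krt79, 1.73, adjusted p = 0.0326; the other members 0.0566 to 0.313). The same 3 libraries gave anti-IL-12p40 fold changes of 1.13 to 1.71 and 1 of 10 called (Krt79, 1.67, adjusted p = 0.0203; the others 0.07 to 0.199). The fall with IMQ was called for 10 of 10 with replicates 1 to 3 alone, nearest the water controls by number (-2.86 to -1.56). With replicates 4 to 6 alone it was called for 8 of 10 (-2.04 to -1.24). There Dgat2l6 (adjusted p = 0.0896) and Elovl3 (adjusted p = 0.0669) were not called. Leaving out IMQ PBS replicate 4 kept 10 of 10 called in all 3 comparisons, with fold changes of -2.80 to -1.76 with IMQ, 1.79 to 2.73 with anti-IL-36R and 1.73 to 2.56 with anti-IL-12p40.

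Between the antibodies 0 of 10 members were called by edgeR, where 0.0456% of all genes were, and 0 of 10 had an unadjusted p under 0.05; DESeq2 and limma-voom also called 0. Fold changes of anti-IL-36R over anti-IL-12p40 ran from -0.09 to 0.40. The highest upper bound of a 95% interval was that of Dgat2l6 (0.40 ± 0.32, interval -0.26 to 1.07), and the narrowest interval was that of Krt79 (0.05 ± 0.222, interval -0.41 to 0.51). Differences within those intervals would not have been detected, and antibody and run cannot be told apart in this comparison.

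Against water skin, 0 of 10 members were called with either antibody by edgeR, and the count at an unadjusted p under 0.05 was 0 too. The background in these comparisons was 13.1% of genes called in either direction with anti-IL-36R and 4.80% with anti-IL-12p40; DESeq2 and limma-voom called 0 of 10 as well. With anti-IL-36R the fold changes over water ran from -0.74 for Awat2 (interval -1.55 to 0.06) to 0.88 for Dgat2l6 (interval -0.02 to 1.78), and with anti-IL-12p40 from -0.72 for Elovl6 (interval -1.62 to 0.19) to 0.47 for Dgat2l6 (interval -0.41 to 1.36). Each interval holds 0, and its width does not show that the levels equal those of water skin. Without water replicate 3, Dgat2l6 was called higher with anti-IL-36R than in water skin (1.60, adjusted p = 0.0482).

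**Figure D3:**
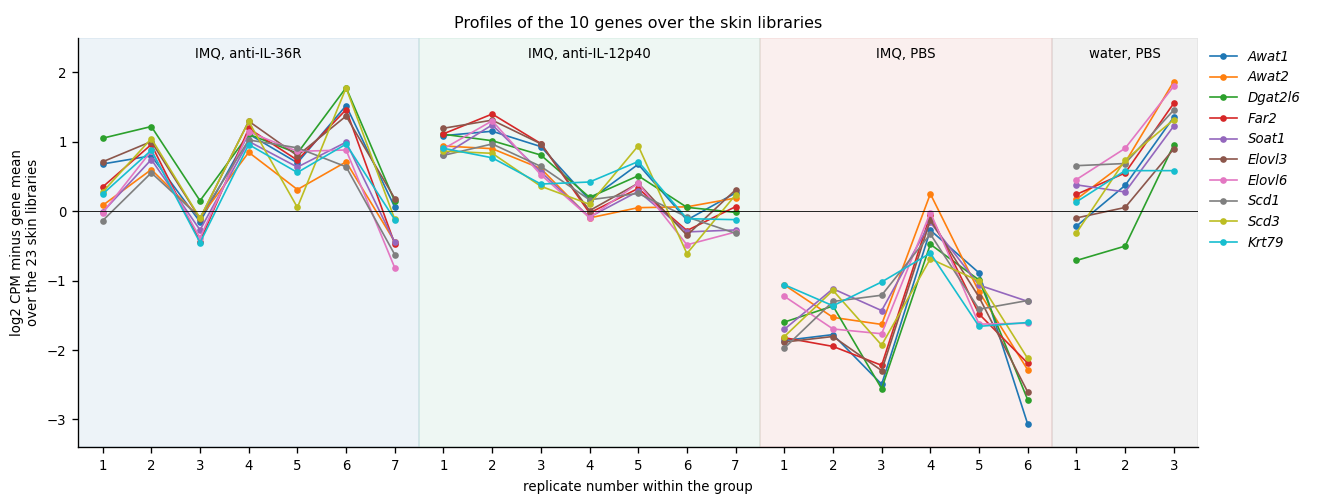
Log2 CPM of each gene minus its own mean over the 23 skin libraries, by library; lines only follow a gene from library to library and stand for no order. In the antibody groups most of the 10 lines go up and down together, whereas in IMQ PBS skin they cross, with IMQ PBS replicate 4 near the level of the lower antibody libraries and water replicate 3 the highest of the controls.

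The members tended to be high or low in the same libraries of a group, in IMQ PBS skin more so for the highest library than for the lowest. With anti-IL-36R the highest library was replicate 6 for 6 members and replicate 4 for 4, and the lowest was replicate 7 for 7 members and replicate 3 for 3. With anti-IL-12p40 replicate 2 was the highest for 6 members, replicate 1 for 3 and replicate 5 for 1. The lowest there was replicate 6 for 6 members, replicate 7 for 3 and replicate 4 for 1. In IMQ PBS skin replicate 4 was the highest for all 10, but the lowest was replicate 6 for 5 members, replicates 1 and 3 for 2 each and replicate 5 for 1. In water skin replicate 3 was the highest for all 10 and replicate 1 the lowest for 9. Averaged over the members, log2 CPM ranged from 6.38 to 7.85 among anti-IL-36R libraries and from 6.42 to 7.73 among anti-IL-12p40 libraries, against 4.59 to 6.39 in IMQ PBS and 6.71 to 7.94 in water libraries.

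The root mean square distance of a member's centred log2 CPM profile from the mean profile of the list, per library over the 23 skin libraries, was 0.213 (Far2) to 0.414 (Dgat2l6), where the median over all genes was 1.02; the members enter their own mean. The nearest genes outside the list by that distance were Cers4, a ceramide synthase (0.172), Rarres1 (0.184), Mgll, the monoacylglycerol lipase (0.189), Clstn3 (0.213), Sec14l4 (0.261), Pctp, a phosphatidylcholine transfer protein (0.275), Lhpp (0.281), Ces4a, a carboxylesterase (0.282), Cyp1a1, a cytochrome P450 (0.286), and Acacb, an acetyl-CoA carboxylase (0.301). As examples, Cers4 had fold changes of -2.18 with IMQ, 1.82 with anti-IL-36R and 1.65 with anti-IL-12p40, and Mgll -2.22, 1.99 and 1.94 in the same order. These were picked for their likeness and so carry no test.

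Of 4 ratios between members of a family, 3 were higher in every antibody library than in every water library and 1, Scd3 over Scd1, was not. They compare CPM without regard to length, were looked at after the values had been seen, and are given with no test. How often other gene pairs part from the 3 water libraries in this way was not computed. Dgat2l6 over Awat2 and Awat1 over Awat2 share their denominator, the scarcest member, so they are not separate observations. The antibody and water groups also differ in IMQ and in run. Dgat2l6 over Awat2 was 3.10 to 5.50 (median 3.93) with anti-IL-36R, 2.27 to 3.61 (2.94) with anti-IL-12p40 and 1.38 to 2.95 (1.88) in IMQ PBS skin, against 1.14 to 1.42 (1.39) in water skin. The antibody libraries thus did not overlap the water libraries in this ratio. Elovl3 over Elovl6 was 0.454 to 0.946 (median 0.573) with anti-IL-36R, 0.474 to 0.722 (0.52) with anti-IL-12p40 and 0.237 to 0.622 (0.384) in IMQ PBS skin, against 0.254 to 0.324 (0.262) in water skin. Awat1 over Awat2 was 6.74 to 12.4 (median 9.18) with anti-IL-36R, 6.16 to 10.8 (8.37) with anti-IL-12p40 and 3.86 to 8.47 (4.49) in IMQ PBS skin, against 4.93 to 5.60 (5.38) in water skin. Scd3 over Scd1 was 0.00565 to 0.0225 (median 0.0137) with anti-IL-36R, 0.00707 to 0.0165 (0.00979) with anti-IL-12p40 and 0.00574 to 0.0136 (0.00973) in IMQ PBS skin, against 0.00525 to 0.0106 (0.0093) in water skin, so that all 4 groups overlapped.

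**Figure D4:**
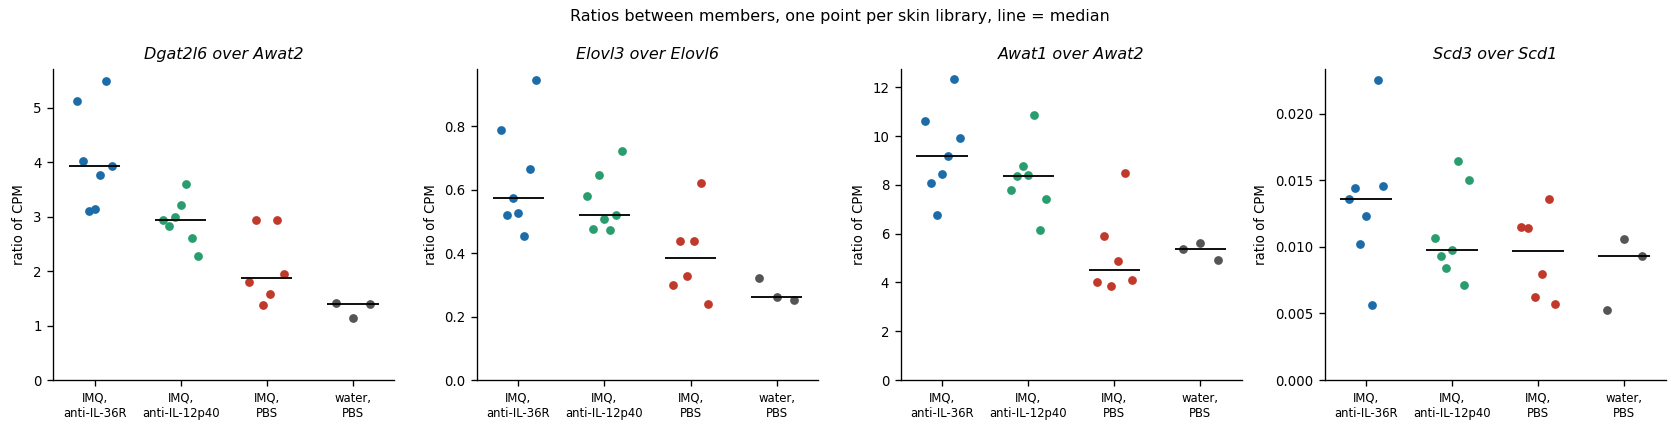
Ratio of CPM between members in each skin library, with the group median as a line; axes start at 0. In 3 of the 4 panels every antibody library lies above the 3 water libraries, and for Scd3 over Scd1 the groups overlap.

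The wider lipid pathway held genes called in both directions. Over all genes tested, 17.5% were called lower and 15.5% higher with IMQ. With anti-IL-36R 3.29% were called higher and 0.919% lower, and with anti-IL-12p40 5.32% higher and 3.49% lower. Of 19 other genes of fatty acid synthesis, 7 fell and 2 rose with IMQ (median -0.37 beside -0.03 over all genes), 8 rose and 0 fell with anti-IL-36R (median 0.37), and 8 rose and 0 fell with anti-IL-12p40 (median 0.26). The falls were led by Scd4, another desaturase (-2.81 ± 0.455, adjusted p = 0.000283), Acacb (-1.82 ± 0.377, adjusted p = 0.00146) and Elovl5 (-1.65 ± 0.33, adjusted p = 0.00117). Scd2, the desaturase paralog found in many tissues, went the other way: it rose by 1.05 ± 0.236 with IMQ (adjusted p = 0.00252) and had fold changes of -0.04 with anti-IL-36R (adjusted p = 0.916) and -0.15 with anti-IL-12p40 (adjusted p = 0.64). Scd2 stood at 844 ± 240 CPM with anti-IL-36R and 783 ± 173 with anti-IL-12p40 (SD, n = 7 each), and 869 ± 162 in IMQ PBS (n = 6) and 420 ± 95.5 in water skin (n = 3). Fasn, the fatty acid synthase itself, was not called in any of these comparisons (-0.55, adjusted p = 0.0565 with IMQ; 0.37, adjusted p = 0.227 with anti-IL-36R; 0.38, adjusted p = 0.184 with anti-IL-12p40).

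Of the 8 genes of that list that rose with each antibody, those with the largest fold changes were Scd4 (1.65 ± 0.403 with anti-IL-36R and 1.80 ± 0.401 with anti-IL-12p40), Acacb (1.47 ± 0.319 and 1.49 ± 0.319), Elovl5 (1.2 ± 0.276 and 1.08 ± 0.276) and Elovl4 (0.83 ± 0.179 and 0.72 ± 0.179), each named first for anti-IL-36R. The other rises were Hsd17b12, Tecr, Acsl5 and Elovl7, each called with both antibodies. Of 16 measured genes of esterification and lipid droplets, 5 fell and 1 rose with IMQ, beside 17.5% of all genes lower and 15.5% higher. With anti-IL-36R 5 rose and 1 fell, beside 3.29% of all genes higher and 0.919% lower. With anti-IL-12p40 3 rose and 1 fell, beside 5.32% higher and 3.49% lower. Cidea, a lipid droplet protein, had fold changes of -1.38 ± 0.272, 1.16 ± 0.227 and 1.12 ± 0.226 in those comparisons, and the droplet coat protein Plin2 -0.86 ± 0.247, 1.15 ± 0.204 and 0.92 ± 0.202. Far1, the other fatty acyl-CoA reductase, was not called with IMQ (-0.53, adjusted p = 0.151) and rose by 1.23 ± 0.231 with anti-IL-36R and 0.93 ± 0.229 with anti-IL-12p40. Lpin2, a phosphatidic acid phosphatase, was the opposite case, 1.90 ± 0.192 with IMQ, -0.89 ± 0.136 with anti-IL-36R and -1.19 ± 0.137 with anti-IL-12p40, all called.

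**Figure D5:**
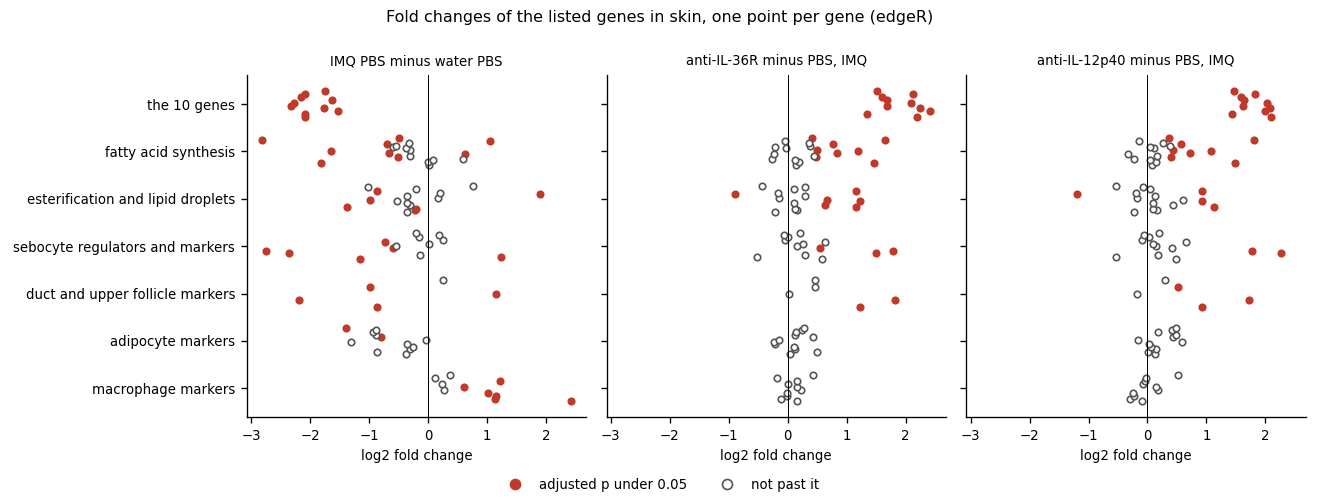
Log2 fold changes of the 10 genes and of genes in 6 lists in the 3 main skin comparisons, one point per gene; red points have an adjusted p under 0.05. The 10 genes are all called and all on one side of 0, whereas the pathway lists hold points on both sides and the adipocyte and macrophage lists hold no called point with either antibody.

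Other markers of sebaceous cells fell in part with IMQ. Of 13 regulators and markers of sebocytes, 5 fell, 1 rose and 7 were not called with IMQ (median -0.21). Over all genes, 17.5% were called lower and 15.5% higher. With anti-IL-36R 3 rose (median 0.26, beside 3.29% of all genes), and with anti-IL-12p40 2 rose (median 0.18, beside 5.32%). Their summed level was higher in IMQ PBS skin, 5660 to 8940 CPM, than in water skin, 2690 to 4130. A sum weights genes by their level, and only 1 of the 13 was called higher, so it does not stand for the list as a whole. It was 3470 to 6570 CPM with anti-IL-36R and 3520 to 6570 with anti-IL-12p40. Mc5r, the melanocortin receptor of sebaceous cells, fell by 2.75 ± 0.532 with IMQ (adjusted p = 0.000959) and rose by 1.79 ± 0.469 with anti-IL-36R (adjusted p = 0.0333) and by 1.77 ± 0.468 with anti-IL-12p40 (adjusted p = 0.0221). Krt7, a keratin of sebaceous gland cells, had fold changes of -2.36 ± 0.444, 1.49 ± 0.399 and 2.26 ± 0.382 in the same order, all called. Pparg, the nuclear receptor of sebocyte and adipocyte differentiation, fell by 0.73 ± 0.264 with IMQ (adjusted p = 0.0387), and its values with the antibodies were 0.63 (adjusted p = 0.0961) and 0.65 (adjusted p = 0.0602). Srebf1, the SREBP gene, was at -0.21 (adjusted p = 0.0503), 0.21 (adjusted p = 0.0605) and 0.20 (adjusted p = 0.0549). The single gene that rose with IMQ was Fabp5, a fatty acid binding protein that keratinocytes also make (1.24 ± 0.291, adjusted p = 0.00339).

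Of 5 markers of the duct and upper follicle, 3 fell and 1 rose with IMQ, beside 17.5% of all genes lower and 15.5% higher. With anti-IL-36R 2 rose (3.29% of all genes) and with anti-IL-12p40 3 rose (5.32%). Their summed level was higher in IMQ PBS skin, 2100 to 3490 CPM, than in water skin, 1350 to 1800. The median fold change of the 5 was nevertheless -0.87, and only 1 was called higher, so the sum does not stand for the list as a whole. It was 2390 to 3760 CPM with anti-IL-36R and 1980 to 2850 with anti-IL-12p40. Gata6, a factor of duct cells, fell by 2.19 ± 0.376 with IMQ (adjusted p = 0.000439) and rose by 1.82 ± 0.323 with anti-IL-36R (adjusted p = 0.00393) and 1.73 ± 0.323 with anti-IL-12p40 (adjusted p = 0.00338). Lrig1, a marker of upper follicle stem cells, fell by 0.98 ± 0.179 with IMQ (adjusted p = 0.000643) and rose by 0.51 ± 0.147 with anti-IL-12p40 (adjusted p = 0.034), with 0.46 (adjusted p = 0.0727) for anti-IL-36R. Krt17, a keratin of follicles and of inflamed epidermis, rose by 1.16 ± 0.204 with IMQ (adjusted p = 0.00052) and had 0.02 with anti-IL-36R (adjusted p = 0.962) and -0.18 with anti-IL-12p40 (adjusted p = 0.48).

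Markers of other cell types in skin are set against the share of all genes called with IMQ, 17.5% lower and 15.5% higher. The shares for the antibody counts are 3.29% higher and 0.919% lower with anti-IL-36R, and 5.32% higher and 3.49% lower with anti-IL-12p40. At such shares, 0 called in a short list does not set it apart from other genes. Adipocyte markers, of which 2 of 12 fell with IMQ, near that background, and 0 of 12 were called with either antibody, summed to 706 to 1410 CPM with anti-IL-36R, 902 to 1410 with anti-IL-12p40 and 364 to 1370 in IMQ PBS skin, against 872 to 1710 in water skin. All 12 adipocyte markers nevertheless had fold changes below 0 with IMQ (-1.39 to -0.03), with a median of -0.83 beside -0.03 over all genes. Their defining members Adipoq (-0.37), Plin1 (-0.93) and Lep (-1.30) were not called with IMQ (adjusted p 0.445, 0.0993 and 0.0516). Macrophage markers, of which 6 of 10 rose with IMQ and 0 of 10 were called with either antibody, summed to 1340 to 1870 CPM with anti-IL-36R, 1200 to 2040 with anti-IL-12p40 and 824 to 1880 in IMQ PBS skin, against 759 to 1300 in water skin.

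Skeletal muscle markers fell for 2 of 6 with IMQ and 0 of 6 were called with either antibody. All 6 had fold changes below 0 with IMQ (-1.41 to -0.77, median -1.19). Their sum was 484 to 1780 CPM with anti-IL-36R, 414 to 2630 with anti-IL-12p40 and 646 to 1700 in IMQ PBS skin, against 1520 to 4360 in water skin. Of 6 epidermal keratinocyte markers, 3 fell and 2 rose with IMQ, 1 rose with anti-IL-36R and 2 rose with anti-IL-12p40: with IMQ, Krt15, a keratin of follicle stem cells, fell by 2.66 ± 0.4 (adjusted p = 0.000185), Lor, the cornified envelope protein, fell by 1.64 ± 0.392 and Krt10 by 1.75 ± 0.521, while Krt14 rose by 1.30 ± 0.322 and Krt5 by 0.44 ± 0.159. Of 8 measured hair follicle keratin genes, 3 fell with IMQ, 0 were called with anti-IL-36R and 3 rose with anti-IL-12p40. Their sum was 9.31 to 179 CPM (median 28.8) with anti-IL-36R, 18.5 to 2470 (51.1) with anti-IL-12p40 and 33.0 to 89.5 (58.8) in IMQ PBS skin, against 21.2 to 452 (244) in water skin. The library at 2470 CPM was anti-IL-12p40 replicate 2, the highest for 6 members. Without it, an alternative chosen after the data had been seen, 0 of 7 hair follicle keratin genes that passed the filter were called with anti-IL-12p40 (adjusted p 0.258 to 0.931), so the 3 calls rested on that library. Without it all 10 members were called with anti-IL-12p40, at 1.26 to 1.99. The part of these cell types in the members' changes was not tested.

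In colon, which has no sebaceous glands, 4 of the 10 members were at or near 0. Awat1 and Dgat2l6 had 0 counts in all 26 colon libraries, which allows up to 0.161 to 0.199 CPM per library (3 counts). Elovl3 was at 0 in every DSS library with anti-IL-36R and reached 0.319 CPM in DSS with anti-IL-12p40, 0.0601 in DSS PBS and 0.0563 in water colon. Krt79 reached 0.222 CPM with anti-IL-36R, 0.106 with anti-IL-12p40 and 0.0636 in DSS PBS, against 0.495 in water colon. Those 4 genes failed the filter on low counts there.

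The other members were counted in every colon library. Elovl6 had 59.6 to 84.0 CPM with anti-IL-36R, 57.4 to 97 with anti-IL-12p40 and 54.9 to 93.5 in DSS PBS colon, against 47.6 to 113 in water colon. Soat1 had 65.8 to 96.8 CPM with anti-IL-36R, 70.0 to 91.9 with anti-IL-12p40 and 66.0 to 98.5 in DSS PBS colon, against 77.6 to 118 in water colon. Scd1 varied most, with 115 to 371, 77.7 to 900.0 and 100 to 306 CPM in those DSS groups, against 72.7 to 767 in water colon. Awat2 stayed at 1.23 CPM or less, Scd3 at 1.51 or less and Far2 at 5.58 or less in any colon library. Levels in skin and colon were scaled separately and no test was made between them.

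With DSS, 2 of the 6 members tested fell, where 14.7% of all 15731 genes tested were called lower. They were Awat2 (-0.97 ± 0.348, adjusted p = 0.0357), at 0.461 ± 0.181 CPM in DSS PBS colon (SD, n = 6) against 0.906 ± 0.285 in water colon (n = 5), and Soat1 (-0.31 ± 0.113, adjusted p = 0.0382), at 80.7 ± 11.6 against 100 ± 14.8 CPM. The groups overlapped in both genes, and the call was lost in 11 of 16 other settings for Awat2 and in 10 of 16 for Soat1. With either antibody against PBS under DSS, 0 of 6 members were called by edgeR, and at an unadjusted p under 0.05 the count was also 0 (-0.47 to 0.42 with anti-IL-36R, where 6.60% of all genes were called; -0.26 to 0.95 with anti-IL-12p40, where 1.15% were); DESeq2 and limma-voom also called 0.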

How the data were processed

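Messenger RNA of mouse skin and colon was sequenced from strand-specific libraries, per the labels' protocols. The authors deposited 1 table of expected counts per gene and library for each tissue; RSEM and the build mm10 are named in the submitters' processing notes, and versions, annotation and the strand setting of the counting are not given in the sources used here. Because a read that matches more than 1 gene is divided among them, 16.71% of skin values and 17.35% of colon values were not whole. After rounding, genes were filtered (filterByExpr), scaled (TMM) and tested by the quasi-likelihood F test of edgeR 4.0.16 (R 4.3.3), where each tissue had a single fit of its 4 groups. In skin 15345 genes and in colon 15731 passed, and Benjamini-Hochberg adjustment ran over them; a gene was called at an adjusted p under 0.05. SE were obtained by dividing the size of the log2 fold change by the square root of F, and intervals are 95%. CPM used TMM-adjusted library totals. Floors of 3 counts cover counting error only. All 23 skin and 26 colon columns were matched to samples by the number in the sample title, and replicates were numbered in accession order, so no samples are paired.

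The 10 members and the pathway and marker lists were chosen with earlier results of these data known. Named genes are the members, up to 4 called genes of each list per main skin comparison with the largest change, defining markers of other cell types, and the 10 named genes nearest to the members' mean profile (log2 CPM, prior count 2). Fasn, Srebf1, Pparg with the antibodies, Far1 with IMQ, and Scd2, Krt17 and Fabp5 values beyond that rule were added after values had been seen, and only a part of the genes the rule names is printed; 1 gene of the sebocyte list is counted but not reported here. Promoters and gene positions came from RefSeq (GRCm38.p6) and exon lengths from GENCODE. Alternatives were DESeq2 1.42.0 size factors, limma-voom with sample weights (limma 3.58.1), the Wald test of DESeq2, no low-count filter, only the groups compared, leaving out each library, and IMQ PBS replicates 1 to 3 or 4 to 6 alone; the hair follicle keratins without 1 library were added after the data had been seen. The scripts were tested on simulated data. Plots used Python 3.11.15 and matplotlib 3.10.9.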

Additional observations from a re-analysis of the deposited data

Results flagged for a closer look

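Over 54 groups of 4 to 10 libraries examined for the members, 3 held a library whose gap to the nearest other library was larger than Dixon's 95% critical value allows; chance alone gives about 1 in 20 groups. In IMQ PBS skin, replicate 4 stood apart for Elovl6 (323 CPM) and for Far2 (106 CPM), each the highest value of its group. In DSS PBS colon, replicate 6 stood apart for Scd3, with 0.51 CPM as the lowest value. That colon library also had the highest sum of epidermal keratinocyte markers in colon, 2590 CPM where the median of its group was 5.21 CPM, and the lowest sum of colon epithelium markers of its group, 2040 CPM; the part of this in the Scd3 value was not tested.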

How the results depend on the processing

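No called value of a member changed sign under any alternative. With IMQ PBS replicates 4 to 6 alone, the count of members called was 1 of 10 with anti-IL-36R and 1 of 10 with anti-IL-12p40, where it was 10 of 10 with all 6 libraries and also 10 of 10 with each antibody against the same number of controls, replicates 1 to 3 alone (highest adjusted p 0.0476 and 0.0318). The cause of the difference was not tested, and the share of all genes called in those refits is not reported here. Over 16 alternatives for IMQ against water, 156 of 160 member values kept their call and 4 lost it (3 of Dgat2l6, 1 of Elovl3). Over 20 alternatives each, 18 of 200 values lost their call with anti-IL-36R (10 of them Awat2) and 9 of 200 with anti-IL-12p40, all of them with replicates 4 to 6 alone. Between the antibodies, 0 of 190 values gained a call and 32 changed sign near 0. Against water skin, leaving out 1 library gave 0 to 1 members called with anti-IL-36R, the 1 being Dgat2l6 without water replicate 3. In colon under DSS, the 2 calls became 1 with no filter on low counts (Krt79, which is filtered out otherwise), 1 with limma-voom, 0 with only the 2 groups compared, and 0 to 2 when a library was left out. No paired analysis was possible because the columns carry no replicate number that groups share. The number of water libraries (3) limits each comparison with water skin, and low counts limit Awat2, Scd3 and Far2 in colon.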
